A study of Mus musculus with 4 samples.

Results

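The immunity-related GTPases (IRG) and guanylate-binding proteins (GBP) are interferon-inducible GTPases of cell-autonomous defence, and 9 of them were selected by name: Irgm1, Irgm2, Igtp, Iigp1, Gbp2, Gbp3, Gbp4, Gbp6 and Gbp7. All probe sets whose annotated symbol was one of these were taken, which gave 12 probe sets of 8 genes, among 45037 probe sets and 18193 singly annotated genes on the array. Gbp4 appeared only on a probe set that also carries the symbol of another gene, so it was given no value. The samples were Paneth cells, the antimicrobial secretory cells of the small intestinal crypt base, cut by laser capture from Atg16 hypomorph mice (2 arrays) and from wildtype mice (2 arrays). Both groups had the same mixed C57BL/6 and 129ola background. The labels call the first group a hypomorph, an allele of reduced function, and do not name the allele, the age or sex of the mice, or the animals behind each array. How the captured regions were chosen is likewise not given. Whether each array stands for a separate mouse is not stated, so a p-value here covers the spread between arrays, and that spread may be technical.

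In mouse cells infected with vacuole-dwelling pathogens such as Toxoplasma, IRG and GBP proteins coat the vacuole membrane and disrupt it. Members of the Irgm group stay on host membranes and hold the effector IRG proteins inactive until they reach a vacuole. The complex of ATG16L1, ATG5 and ATG12, which attaches LC3-like proteins to membranes, is needed for this targeting. Setting hypomorph against wildtype cells shows whether transcripts of the GTPases differ between these groups. Xist, a transcript of female cells, was high on the hypomorph arrays only. A difference therefore cannot be assigned to genotype apart from sex, as far as Xist shows it.

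Of the 12 probe sets, 2 rose in hypomorph cells at an adjusted p under 0.05 in limma and 0 fell, against 2.04% and 1.67% of the 22519 probe sets tested. The 2 were a probe set of Gbp2 and the probe set of Irgm2. At an unadjusted p under 0.05 there were 4 of 12, against 20.5% of all tested. Both hypomorph arrays lay above both wildtype arrays for 8 of the 12, against 21.8% of all tested probe sets, and below them for 1, against 29.9%. The median log2 difference was 0.21, and that of all tested probe sets -0.03. All 12 passed the brightness filter, so no member was lost to it.

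Values are deposited linear intensities. A difference is the hypomorph minus the wildtype mean of log2(intensity + 32), with its SE from the model, and an SD is over the 2 arrays of a group. In bulk samples fewer cells of a type and less RNA per cell cannot be told apart. Spot brightness depends on the probe, so levels are compared between groups and not between genes.

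Promoter windows from RefSeq (GRCm38.p6), which run from 250 bases before to 50 after the annotated start, were found for 6 of the 9 genes: Irgm1, Irgm2, Igtp, Gbp2, Gbp3 and Gbp7. Iigp1, Gbp4 and Gbp6 had none in the table. Letters of 2 interferon response motifs were searched on both strands, GAAANNGAAA for the interferon-stimulated response element (ISRE) and TTCNNNGAA for the gamma-activated site (GAS), which reads the same on both strands. The ISRE letters were in a window of all 6 genes, against 3.44% of the 32851 windows in the table, and the GAS letters in 3 of the 6 (Irgm2, Igtp and Gbp7), against 8.3%. Of all windows 0.454% held both. A second annotated start of Gbp3 held neither. Members were counted by gene, and the background by window. Among 9 related GTPase genes outside the list that had a window, 6 held the ISRE letters and 4 the GAS letters. The members were selected as interferon-inducible genes, so these shares are a description. A match describes letters in the reference genome and is not a binding site measured here.

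The windows of Irgm2 and Igtp, adjoining genes whose probe sets gave different values, and of Gbp2 and its neighbour Gbp2b, called in opposite directions, are shown with the matched letters in capitals. They lie at chr11:58214727-58215026 (Irgm2), chr11:58199306-58199605 (Igtp), chr3:142620413-142620712 (Gbp2) and chr3:142594597-142594896 (Gbp2b), all on the plus strand.
Irgm2: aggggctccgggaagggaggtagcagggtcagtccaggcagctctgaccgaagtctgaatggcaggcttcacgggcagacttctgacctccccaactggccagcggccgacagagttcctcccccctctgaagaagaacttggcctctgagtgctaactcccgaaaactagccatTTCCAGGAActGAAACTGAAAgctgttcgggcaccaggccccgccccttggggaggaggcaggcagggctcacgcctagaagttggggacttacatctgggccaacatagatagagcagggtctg
Igtp: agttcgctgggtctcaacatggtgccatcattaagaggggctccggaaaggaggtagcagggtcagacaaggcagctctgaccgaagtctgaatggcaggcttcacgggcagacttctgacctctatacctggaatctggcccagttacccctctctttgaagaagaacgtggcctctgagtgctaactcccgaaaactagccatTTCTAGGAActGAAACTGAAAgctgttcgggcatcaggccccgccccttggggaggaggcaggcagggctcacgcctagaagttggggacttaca
Gbp2: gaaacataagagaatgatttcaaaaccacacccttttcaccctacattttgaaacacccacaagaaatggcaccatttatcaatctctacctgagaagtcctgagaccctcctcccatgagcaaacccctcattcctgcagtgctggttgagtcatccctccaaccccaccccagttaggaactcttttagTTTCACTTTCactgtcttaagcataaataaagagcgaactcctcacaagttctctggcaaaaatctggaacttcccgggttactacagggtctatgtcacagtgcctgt
Gbp2b: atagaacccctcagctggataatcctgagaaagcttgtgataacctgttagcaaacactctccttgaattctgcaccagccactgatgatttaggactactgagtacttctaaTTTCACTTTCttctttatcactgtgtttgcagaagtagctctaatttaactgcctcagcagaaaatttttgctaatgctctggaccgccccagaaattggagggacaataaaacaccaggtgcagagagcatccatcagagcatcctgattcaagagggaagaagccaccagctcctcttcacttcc

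In Irgm2 the GAS letters begin at base -75 and the ISRE letters at -64, counted from the annotated start. In Igtp the same 2 motifs begin at -45 and -34. The longest stretch identical between these windows was 61 bases, and with a shift of 30 bases 184 of 270 bases (68.1%) were identical. That comparison allowed no gaps, so upstream stretches that match at another shift were not counted as alike, and the share understates the likeness. Gbp2 has the ISRE letters at -59 and Gbp2b at -137, in both cases as the reverse complement TTTCNNTTTC, and their longest identical stretch was 10 bases.

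Among the regulators, Irgm2, which restrains effector IRG proteins on host membranes, measured 1237 and 1245 on the hypomorph arrays, against 911 and 894 on the wildtype arrays. The groups were separated by far more than the gap between their own arrays. The means were 1241 ± 6.02 in hypomorph and 903 ± 11.8 in wildtype (SD, n = 2 each), a log2 difference of 0.45 (SE 0.10, 1.36-fold on that scale) with an adjusted p of 0.0393 in limma. The call was lost without any 1 of the 4 arrays, with adjusted p between 0.0582 and 0.16, while the difference stayed between 0.43 and 0.46. It was also lost with no filter on dim probe sets (adjusted p = 0.0993) and without an intensity trend in the variance (adjusted p = 0.11).

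Igtp, the regulator whose gene adjoins Irgm2 on chromosome 11, measured 2789.5 and 3221 in hypomorph, against 2931 and 3066 in wildtype. The wildtype arrays lay inside the range of the hypomorph arrays. The 95% interval of its log2 difference ran from -0.19 to 0.19. Irgm1, a regulator needed for resistance to several bacteria in mice, measured 737 and 835 in hypomorph, against 690.5 and 748 in wildtype. These groups overlapped, and the difference of 0.12 (SE 0.12) had an interval from -0.14 to 0.39 (limma adjusted p = 0.604). The 3 regulators therefore had differences of 0.45, 0.12 and near 0, and the intervals of Irgm2 and Igtp did not overlap. No test of the difference between genes was run.

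Iigp1, an effector IRG protein that loads onto the Toxoplasma vacuole, had 2 probe sets. Probe set 1419043_a_at measured 2340.2 and 2208 in hypomorph, against 2092 and 1868 in wildtype. Probe set 1419042_at measured 1135 and 1239 in hypomorph, against 1049 and 1002 in wildtype. On both, each hypomorph array was above each wildtype array. Both log2 differences were 0.20 (SE 0.09 and 0.10), and neither passed the test (limma adjusted p = 0.244 and 0.294). Iigp1 lies on chromosome 18, apart from the other members.

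**Figure D1:**
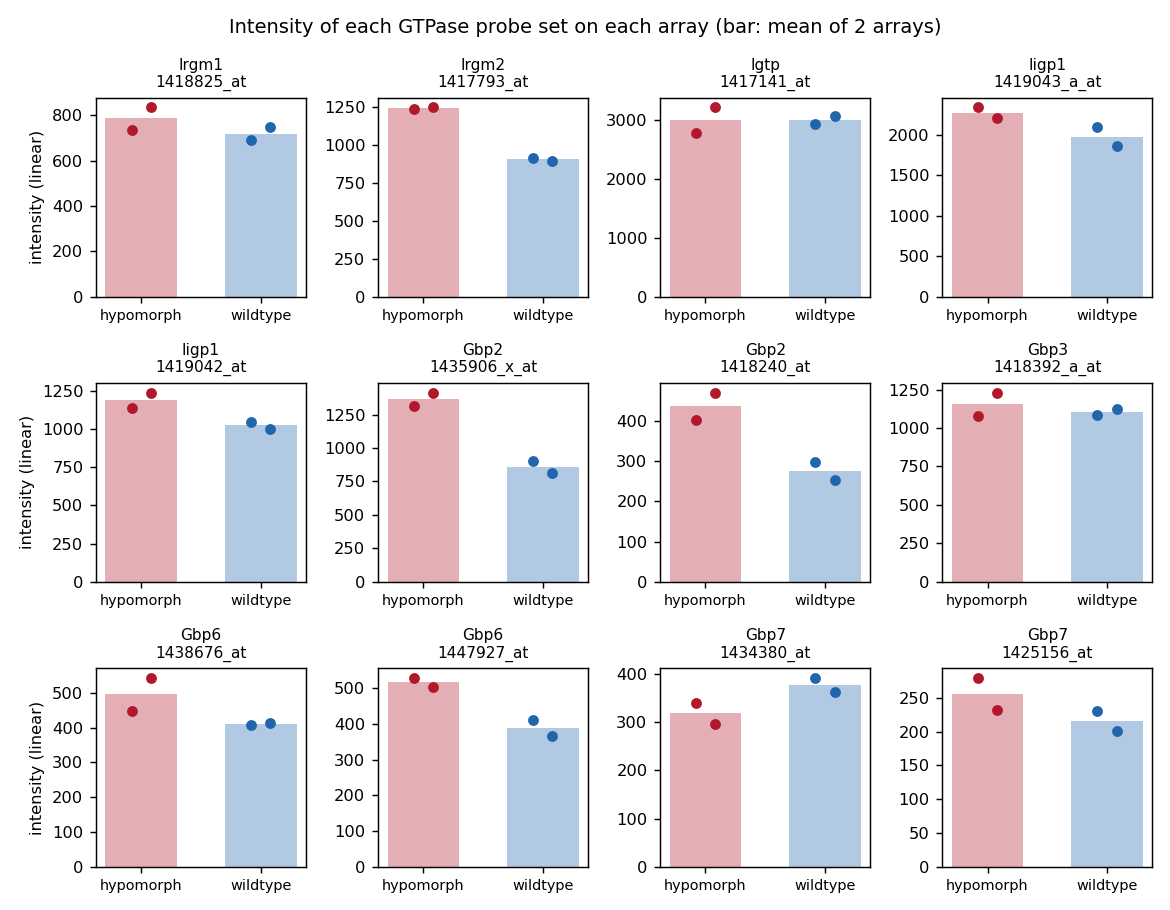
Linear intensity of each of the 12 probe sets, with hypomorph (red) left of wildtype (blue). Points are the 2 arrays of a group and bars their mean. Both hypomorph points lie above both wildtype points for 8 of the 12, against 21.8% of all tested probe sets. They lie below for 1 (Gbp7 1434380_at), against 29.9%, and the groups overlap for Irgm1, Igtp and Gbp3.

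Gbp2, a GBP that coats pathogen vacuoles and helps to break them, gave the largest difference among the 12. Its brighter probe set, 1435906_x_at, measured 1314 and 1415 in hypomorph, against 902 and 813 in wildtype. The other, 1418240_at, measured 404 and 471.5 in hypomorph, against 297 and 253 in wildtype. Neither showed any overlap between groups. The brighter one averaged 1365 ± 71.5 in hypomorph and 857 ± 62.9 in wildtype (SD, n = 2 each), and rose by 0.65 (SE 0.11, 1.57-fold on the log2 scale used, limma adjusted p = 0.00909). The dimmer one gave 0.61 (SE 0.15) with an adjusted p of 0.0546. The suffix of the brighter probe set marks probes that can match similar sequences, so its signal may include close paralogues. The dimmer one, without that mark, gave a difference of nearly the same size but did not pass the threshold. It passed under quantile normalisation (adjusted p = 0.0493), with a stricter brightness filter (0.0466) and with a robust prior (0.0420), and its adjusted p lay between 0.0628 and 0.261 with an array left out. The call of the brighter one was kept without each array in turn, with differences from 0.58 to 0.72, and lost without the intensity trend (adjusted p = 0.0709).

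Gbp3, a GBP of the same chromosome 3 cluster, measured 1079 and 1231 in hypomorph, against 1083 and 1125 in wildtype. The groups overlapped, with a difference of 0.06 (SE 0.11, interval -0.18 to 0.30). Gbp7, which in mouse macrophages helps to assemble the oxidant-producing NADPH oxidase, had probe sets that disagreed. Probe set 1434380_at measured 339.6 and 296 in hypomorph, against 392 and 362 in wildtype. Probe set 1425156_at measured 279.7 and 232 in hypomorph, against 230.1 and 201 in wildtype. The first was lower and the second higher on both hypomorph arrays, with differences of -0.23 (SE 0.14) and 0.22 (SE 0.16) that did not pass the test (limma adjusted p = 0.3997 and 0.479). Averaged over the 2 probe sets the difference of Gbp7 was -0.0052, so its direction is not settled by these data.

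Gbp6, a member of the chromosome 5 cluster, was higher on both hypomorph arrays with either probe set. Probe set 1447927_at measured 530.1 and 504 in hypomorph, against 411 and 367 in wildtype. Probe set 1438676_at measured 449 and 544 in hypomorph, against 409 and 412 in wildtype. For the second, the gap between the hypomorph arrays exceeded the distance between the group means. The differences were 0.39 (SE 0.13) and 0.25 (SE 0.14), and neither passed the test (limma adjusted p = 0.139 and 0.341).

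**Figure D2:**
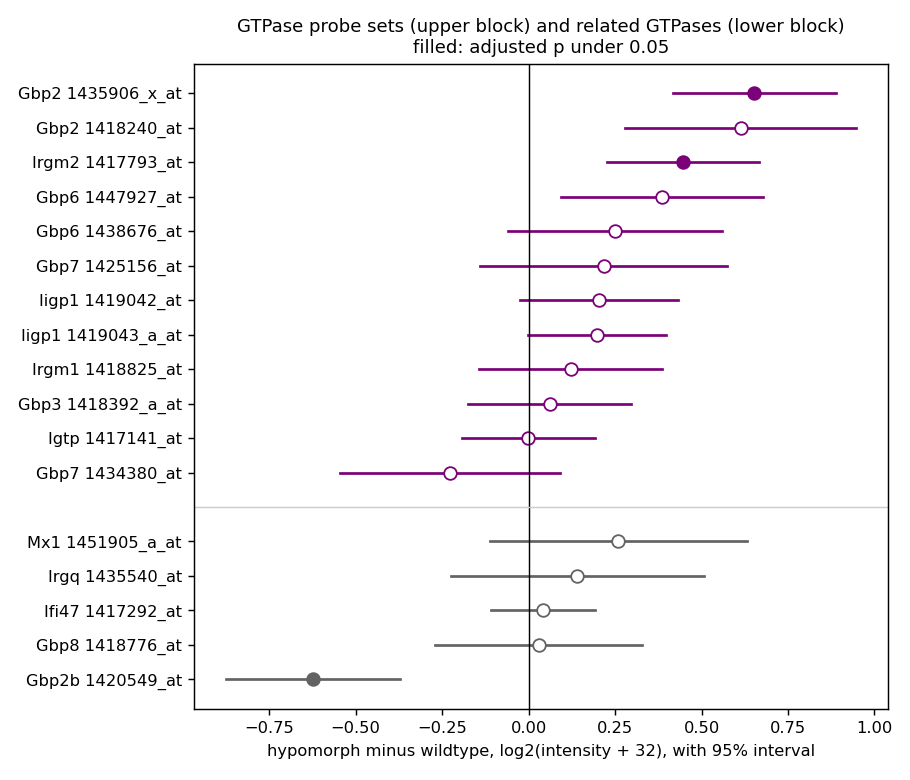
Hypomorph minus wildtype difference on the log2(intensity + 32) scale, with its 95% interval from limma, for the 12 probe sets (upper block) and 5 related GTPases (lower block). Filled points had an adjusted p under 0.05: Gbp2 at 0.65 and Irgm2 at 0.45 above 0, and Gbp2b at -0.62 below it.

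Of 20 symbols listed for related GTPases, 7 had a probe set of their own and 5 passed the filter, and 0 of these rose and 1 fell, against 2.53% and 1.7% of the 11577 genes tested by their brightest probe set. The one that fell was Gbp2b, the gene formerly named Gbp1, which adjoins Gbp2 on chromosome 3. It measured 754 and 865 in hypomorph, against 1319.7 and 1205 in wildtype. Every hypomorph value was below every wildtype value. The log2 difference was -0.62 (SE 0.11, limma adjusted p = 0.0157), close in size to that of Gbp2 and opposite in sign. The call was lost without hypomorph replicate 1 (-0.53, adjusted p = 0.0541) and without wildtype replicate 1 (-0.56, adjusted p = 0.0749), as well as with no filter (adjusted p = 0.0702) and without the trend (adjusted p = 0.0851). Mx1, an antiviral dynamin-like GTPase, was at 0.26 (SE 0.17), and Irgq at 0.14 (SE 0.16). Ifi47, another IRG gene on chromosome 11, measured 4109 and 4347 in hypomorph, against 4201 and 4013 in wildtype, and the groups overlapped. Gbp8, on chromosome 5, was at 0.03 (SE 0.13).

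In gene order on chromosome 3, from Gbp5 to Gbp2, the differences were 0.22 and -0.23 for the probe sets of Gbp7, 0.06 for Gbp3, -0.62 for Gbp2b and 0.65 and 0.61 for Gbp2. Neighbours in this cluster therefore did not share a direction. The pair on chromosome 11 had 0.45 for Irgm2 beside an Igtp difference near 0.

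**Figure D3:**
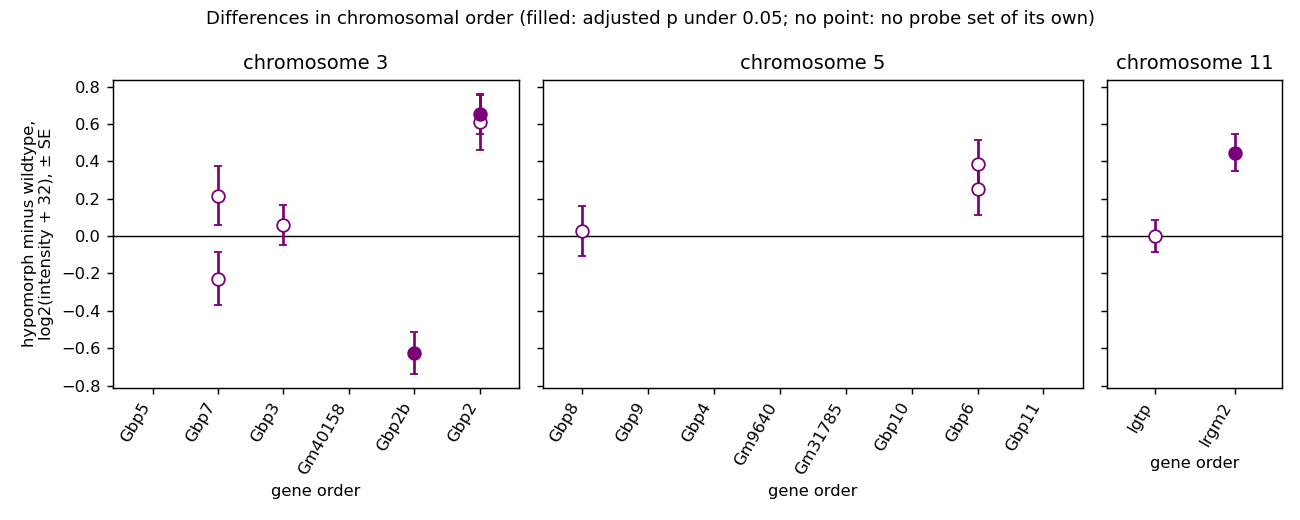
Hypomorph minus wildtype difference (log2(intensity + 32), bars ± SE) of each probe set, with genes in chromosomal order and not to scale; genes with no point had no probe set of their own. Filled points had an adjusted p under 0.05, and Gbp2b at -0.62 stands beside Gbp2 at 0.65.

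The pathway that induces these GTPases was compared next. Interferon gamma binds its receptor (Ifngr1 and Ifngr2), the kinases Jak1 and Jak2 pass the signal on, and Irf1 and related factors bind ISRE letters. Of 22 listed signalling genes 17 were tested, and 0 rose and 0 fell in limma, against 2.53% and 1.7% of the 11577 genes, so 0 calls in a list of this size is near the background. At an unadjusted p under 0.05 there was 1 of the 17, against 21.7% of all genes, and the median difference was 0.04, against -0.02. That 1 was Nlrc5, an activator of MHC class I genes, which measured 599 and 631 in hypomorph, against 789.7 and 791 in wildtype (difference -0.35, SE 0.11, adjusted p = 0.124). Ifnar2, a subunit of the type I interferon receptor, was at 0.26 (SE 0.14), and Pias1, an inhibitor of interferon signalling, at -0.24 (SE 0.14). Irf1 measured 3385 and 3764 in hypomorph, against 3554 and 3386 in wildtype, and the groups overlapped. Ifng itself was at 8.25 and 7.24 in hypomorph, against 14.8 and 9.87 in wildtype, below the brightness filter, so no change of it could be tested.

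Of 39 other interferon-induced genes tested, 8 rose and 0 fell, against 2.53% and 1.7% of all genes tested, with 31 positive differences and a median of 0.27, beside a median of 0.16 over the 8 GTPase genes by their brightest probe set. The tryptophan-degrading enzyme Ido1 measured 525 and 510.4 in hypomorph, against 247 and 313 in wildtype (0.83, SE 0.15, limma adjusted p = 0.0154), and its call was lost without wildtype replicate 1 (adjusted p = 0.0774). The RNA-sensing synthetase Oas1a measured 1424 and 1559.7 in hypomorph, against 905 and 939 in wildtype (0.67, SE 0.10, adjusted p = 0.00552). Rtp4, an interferon-induced inhibitor of virus replication, measured 1464 and 1474 in hypomorph, against 985 and 903 in wildtype (0.62, SE 0.10, adjusted p = 0.00838). The others called were Rsad2, B2m, Ifi27l2a, Ifit3 and Ifit1, and without the intensity trend only Rsad2 of the 8 was called. Ifit3 lost its call when replicate 1 of either group was left out, and Ifit1 when replicate 2 of either was. At an unadjusted p under 0.05 there were 18 of the 39, against 21.7% of all genes. The chemokine gene Cxcl9, a target of interferon gamma, was at 0.03 (SE 0.19), and Cxcl10 at -0.15 (SE 0.17). Both were dim, with intensities of 78.1 to 106 for Cxcl9 and 89.2 to 119 for Cxcl10. Among other uncalled genes of the list, Cd74 (0.55, SE 0.14) and Psmb9 (0.31, SE 0.09) were higher on both hypomorph arrays, and Tap1 (-0.19, SE 0.11) lower. This list was chosen with rises of some of its members known and is no independent evidence of a direction.

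The machinery that directs the GTPases to membranes was also compared. Atg16l1 measured 966 and 995 in hypomorph, against 1335 and 1183 in wildtype, lower on both arrays but not called (-0.35, SE 0.10, limma adjusted p = 0.102). Of 14 tested genes of LC3 conjugation 1 rose and 0 fell, against 2.53% and 1.7% of all genes tested, and 4 of 14 had an unadjusted p under 0.05, against 21.7%. Their median was 0.10. The gene that rose was Atg4c, which encodes a protease that processes LC3-like proteins, at 1173 and 1149 in hypomorph, against 848 and 784 in wildtype (0.49, SE 0.10, adjusted p = 0.0327), and its call was lost without hypomorph replicate 1 and without either wildtype replicate (adjusted p from 0.0608 to 0.161). Gabarap, an LC3-like protein, measured 293 and 299 in hypomorph, against 202 and 152 in wildtype, a difference of 0.66 (SE 0.17) with an adjusted p of 0.0598. Of 15 tested genes of vacuole sensing and the inflammasome, which act once a vacuole is damaged, 0 rose and 0 fell, which is near the same background shares, with 1 at an unadjusted p under 0.05 and a median of 0.01. The smallest p-values were those of Nlrp6 (-0.19, SE 0.08), Casp4, the sensor of cytosolic lipopolysaccharide (0.22, SE 0.10), and the autophagy receptor Sqstm1 (0.30, SE 0.15).

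Markers of the cell types that the captured regions could hold were compared as well. Of 9 Paneth cell markers with a probe set, 0 were called in limma, against 2.53% of all genes higher and 1.7% lower, and 2 of 9 had an unadjusted p under 0.05, against 21.7%. Only 1 of the 9 differences was positive, and their median was -0.10, against -0.02 for all genes tested. Mmp7, the protease that activates defensins, measured 8463 and 9486 in hypomorph, against 9063 and 9314 in wildtype, and these groups overlapped. The Paneth sums were 67479 and 72967 in hypomorph, against 73296 and 73822 in wildtype, with Sox9 alone below an intensity of 100. Paneth products were thus bright in both groups. Summed intensities of 16 T and NK cell markers were 6356 and 6416 in hypomorph, against 5500.4 and 5134 in wildtype. Of these 16, 9 stayed below an intensity of 100 on all 4 arrays, among them Cd3e, Cd3g and Cd8a. Of the 12 tested, 3 rose (Gzmb, Gzma and Ccl5) and 0 fell, against 2.53% and 1.7% of all genes tested. Only 6 of the 12 differences were positive and their median was -0.0081, so the higher sum was not shared by the list. Gzmb, a cytotoxic granule protease, measured 516 and 551 in hypomorph, against 220.3 and 149 in wildtype. Ptprc, the pan-leukocyte gene for CD45, measured 1605 and 2033 in hypomorph, against 2153 and 2199.8 in wildtype, and did not pass the test (-0.26, SE 0.11, limma adjusted p = 0.216). The sums of 12 macrophage markers were 15766 and 16901 in hypomorph, against 15304 and 15629 in wildtype, with 5 of the 12 below 100, among them Cd68 at 19.1 to 31. The brightest of them, Lyz2, and thus the largest part of these sums, measured 7689 and 8190 in hypomorph, against 7868 and 8245 in wildtype, and overlapped. Of the 7 macrophage genes tested, 4 had a positive difference, and their median was 0.04. Adgre1 (0.29, SE 0.09) and Csf1r (0.23, SE 0.08) were higher on both hypomorph arrays but not called (limma adjusted p = 0.129 and 0.148). They were the 2 of the 7 with an unadjusted p under 0.05, against 21.7% of all genes. Sums of 11 endothelial markers were 4874 and 4996 in hypomorph, against 4505 and 4206 in wildtype, with 4 of the 11 below 100, among them Pecam1 and Cdh5. Differences were positive for 7 of the 8 endothelial genes tested, and their median was 0.21, against -0.02 for all genes tested. Eng, Kdr and Cldn5 were the 3 of the 8 with an unadjusted p under 0.05 in limma, all higher, against 21.7% of all genes. Sums of 4 B and plasma cell markers were 7229 and 6663 in hypomorph, against 6547 and 6369 in wildtype. Most of this last sum was Jchain, the joining chain of secreted antibodies, at 6185 and 5771 in hypomorph, against 5606 and 5554 in wildtype. Cd79a, a part of the B cell receptor, was lower on both hypomorph arrays, at 63.4 and 84 in hypomorph, against 113 and 118 in wildtype, and was not called (-0.49, SE 0.17, limma adjusted p = 0.151). Sums of 8 fibroblast markers were 26629 and 28044 in hypomorph, against 23503 and 23696 in wildtype. The widest gaps were those of enterocyte and fat cell genes. The sums of 12 enterocyte markers were 28510.3 and 29225 in hypomorph, against 19569.6 and 19964 in wildtype, with Anpep and Rbp2 below 100, and those of 9 fat cell markers were 24789 and 23772 in hypomorph, against 9145 and 9117 in wildtype, with Lipe and Retn below 100. Called higher were 7 of 7 tested fat cell genes, 8 of 10 tested enterocyte genes and 4 of 8 fibroblast genes, against 2.53% of all genes tested. None of these fell, and no tested macrophage, endothelial or B and plasma cell gene was called. All sums but the Paneth one were higher on both hypomorph arrays, as Irgm2 and Gbp2 were, and their part in those results was not tested. Xist, expressed from the inactive X chromosome of female cells, measured 4414 and 4510 in hypomorph, against 18 and 25.6 in wildtype, so sex, as far as Xist shows it, and genotype cannot be told apart for any value here.

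Removing each array in turn showed how far single arrays set the differences. Of the 12 probe sets, 10 kept their sign in all 4 cases. Igtp ranged from -0.10 to 0.10 and Gbp3 from -0.03 to 0.15. Irgm1, at 0.12 with all arrays, ranged from 0.04 without hypomorph replicate 2 to 0.21 without hypomorph replicate 1. Gbp6 probe set 1438676_at, at 0.25, was at 0.12 without hypomorph replicate 2 and at 0.38 without hypomorph replicate 1. Gbp7 probe set 1425156_at, at 0.22, was at 0.10 when hypomorph replicate 1 was left out, at 0.13 when wildtype replicate 2 was, and at 0.34 when hypomorph replicate 2 was. Its probe set 1434380_at, at -0.23, was at -0.14 without hypomorph replicate 2. Iigp1 probe set 1419043_a_at, at 0.20, was at 0.12 without wildtype replicate 2. The size of these small differences thus rested in part on single arrays.

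**Figure D4:**
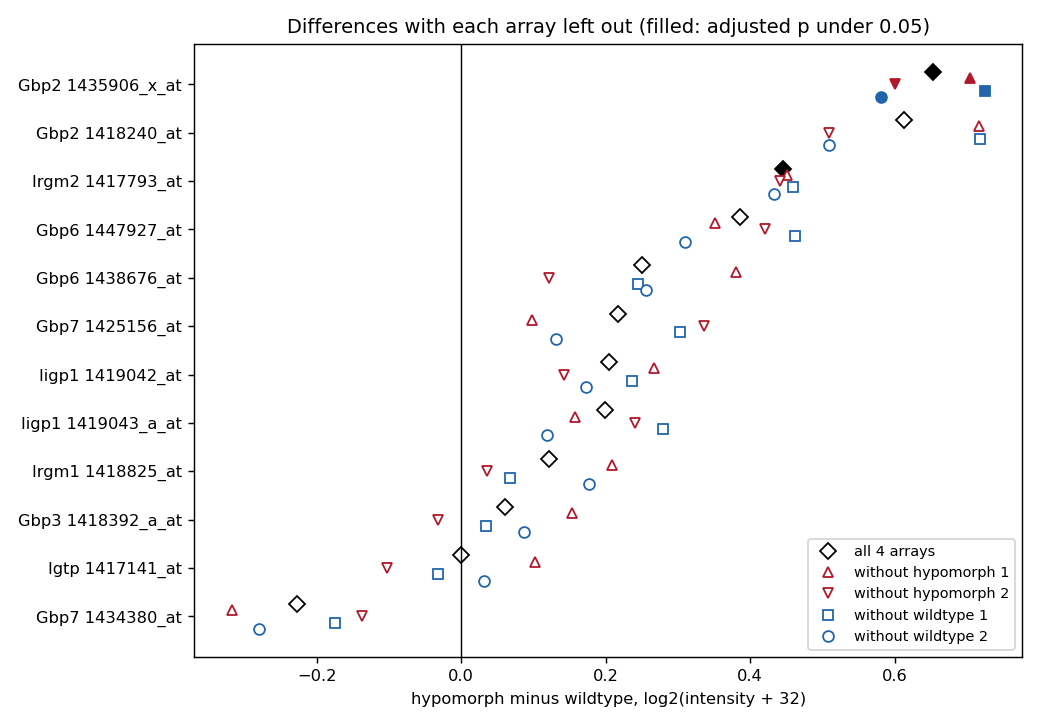
Hypomorph minus wildtype difference (log2(intensity + 32)) of each probe set with all 4 arrays (black) and with each hypomorph (red) or wildtype (blue) array left out. Filled points had an adjusted p under 0.05; Gbp2 1435906_x_at was called in all 5 cases, and Irgm2 only with all 4 arrays, while its difference stayed between 0.43 and 0.46.

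Likeness to the mean profile of the 8 GTPase genes was measured as Euclidean distance between centred log2 values over the 4 arrays. Among 11569 other genes the nearest were Alg2 (0.021), Polr2j (0.022), Cd40 (0.026), Tsacc (0.027) and Spryd7 (0.028). The nearest of the GTPases themselves lay at 0.132 and the farthest at 0.473, and 779 other genes were nearer than the nearest of them. With 4 arrays this likeness is a description.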

How the data were processed

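Per the labels, the PicoPure kit yielded total RNA from laser-captured cells, and RiboAmp Plus served to amplify it and add biotin, per the labels' protocols. The authors deposited 1 linear intensity per probe set and array. No source used here gives the scaling, background correction, summarisation or detection calls. Median intensities lay between 47.2 and 49.5, so the values were not normalised again, and the small number of arrays limits the precision.

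Control probe sets (64 of 45101) were left out. Of the other 45037, 34945 carried 1 symbol in the platform annotation, 932 several and 9160 none, and only the first were named. Chromosomes and gene order came from RefSeq (GRCm38.p6). No build is named for the series, and the only coordinates printed are those of the RefSeq promoter windows.

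Intensities were analysed as log2(intensity + 32). The 22519 probe sets at or above the median mean log2 value (6.32) were fitted with the group as the only term by lmFit and eBayes, with a trend of variance on intensity, in limma 3.58.1 (R 4.3.3), which gave 2 residual and 7.81 prior degrees of freedom. P-values are two-sided and Benjamini-Hochberg adjusted over all of them, and a call is an adjusted p under 0.05. The scale understates changes of dim genes. This fit was also run on simulated data, with independent noise set from its own variance estimates. That run cannot cover differences between the groups in sex or cell content. Tables were made in Python 3.11.15 with pandas 2.3.3 and figures with matplotlib 3.10.9.

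Genes of context lists were represented by their brightest probe set. Named were all member probe sets, called genes of each list (up to 3 by smallest p where fewer were called), Atg16l1, and the 5 genes with the most similar profile. Irf1, Ifng, Cxcl9, Cxcl10, Cd74, Psmb9, Tap1, Ifi47, Gbp8, Xist and the marker genes are named for context, after their values were seen. The members and lists were chosen with earlier results of these data known. Alternatives covered the pseudocount, normalisation, filter, variance prior, replicate block, averaging of probe sets, and leaving out each array. A group left with 1 array was then taken to vary as much as the other.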

Additional observations from a re-analysis of the deposited data

How the results depend on the processing

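The 12 GTPase probe sets gave 159 values under the alternatives, of which 143 kept direction and side of the threshold, 5 passed it newly, 7 lost a call and 4 changed sign. The sign changes were those of Igtp under quantile normalisation (0.012) and with hypomorph replicate 1 (0.10) or wildtype replicate 2 (0.03) left out, and of Gbp3 with hypomorph replicate 2 left out (-0.032). With an array left out Igtp ranged from -0.10 to 0.10 and Gbp3 from -0.032 to 0.15. The count of GTPase probe sets called higher, 2 in the report, was 1 with no filter on dim probe sets, 0 without an intensity trend, 3 under quantile normalisation, with a stricter filter and with a robust prior (the dimmer Gbp2 probe set being added), and 1 whichever array was left out. Related GTPases called lower, 1 in the report, numbered 0 with no filter and 0 without a trend, and 0 to 1 with an array left out. Other interferon-induced genes called higher, 8 in the report, numbered 5 with no filter, 1 without a trend and 6 to 9 with an array left out. LC3 conjugation genes called higher, 1 in the report, numbered 0 with no filter, 0 without a trend, 2 with a robust prior, 0 when a gene's probe sets were averaged, and 0 to 1 with an array left out. Fits without the filter tested 45037 probe sets and called 303, those without a trend called 323, and the fit in the report called 836. Fits with 3 arrays have 1 residual degree of freedom. In other cases the cause was not tested.

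The replicate numbers are shared between groups, but no label says that they pair samples. Deviations of same-numbered arrays correlated at 0.264 over probe sets. With the replicate block 3206 probe sets were called, and 4 GTPase probe sets were higher (both of Gbp2, Irgm2 and Gbp6 1447927_at), 16 other interferon-induced genes higher, 2 LC3 conjugation genes higher and 1 lower, and 1 interferon signalling gene lower. Dim signal limits Ifng, Stat2, Irf7 and Socs1, which did not pass the filter.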
